A study of Mus musculus with 12 samples.

Results

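The cytosolic ribosomal protein genes described here are those whose symbol begins with RPL or RPS followed by a digit, without the S6 kinase symbols that begin with RPS6K and without symbols marked as pseudogenes by -PS. The rule took 81 symbols out of 13957, of which 46 were RPL symbols, counted with the 60S (large) subunit, and 35 RPS symbols, counted with the 40S (small) subunit. They were measured by bulk RNA-seq in spinal cord of male mice that express human ApoE4, collected 14 days after a contusion at thoracic level 9 that was made at 4 months of age. All mice were injured and all carried ApoE4, and they differed in carrying 2 normal alleles of synj1 (synj1+/+) or 1 normal and 1 inactive allele (synj1+/-). Tissue just rostral ("above") and just caudal ("below") of the lesion epicenter gave 4 groups of 3 libraries each, 12 in all. The deposited table gives 1 FPKM value (fragments per kilobase of transcript, scaled to the number of mapped fragments) per gene, genotype and site, which combines the 3 libraries of a group. The spread between animals, the depth behind a value, and whether 1 library carried a group could not be read from it, and the authors' own p-values were not used, so every difference below is a size without a test or an error. In bulk tissue, fewer cells of a type and less RNA per cell cannot be told apart.

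Ribosomal proteins assemble with ribosomal RNA into the 2 subunits of the ribosome. The small subunit reads the mRNA, and the large subunit joins amino acids and releases the chain through an exit tunnel. Most vertebrate ribosomal protein mRNAs begin with a C and a run of pyrimidines, the 5′ TOP motif, through which the mTORC1 pathway and the RNA-binding protein LARP1 control their translation as a set. Every cell type of the spinal cord expresses them, and they are often used as an example of a coordinately expressed housekeeping set.

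Of the 81 genes, 79 were listed among 13647 genes above the lesion and 72 among 12338 below it, and 70 were listed at both sites. RPL10A, RPL15, RPL18, RPL24, RPL27, RPL29, RPL3, RPL38 and RPS4L were listed only above, and RPL22 and RPL36 only below. RPS19BP1, RPS23RG1, RPS27RT and RPL7L1 met the rule on symbols, although they do not name one of the canonical ribosomal proteins, and they stay in the subunit counts. RPS19BP1 is an RPS19-binding protein and RPL7L1 a ribosome assembly factor.

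Measurements of the whole table frame the comparisons. SYNJ1, the gene with the inactive allele, had an FPKM of 1904 with synj1+/+ and 2403 with synj1+/- above, and 1846 and 2592 below, so that its direction runs against the labels at both sites. An exchange of the genotype labels would turn the sign of every genotype difference below, and whether one occurred was not tested. The group is therefore called "the group labelled synj1+/-" and directions are its value against that of the group labelled synj1+/+, as log2 differences of FPKM plus 1. Where a pair of FPKM values is given for a site, that of synj1+/+ comes first. APOE was at 766 and 548 above, and at 476 and 563 below. Over all genes, the median log2 difference between genotypes was -0.0039 above and 0.01 below.

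The sequences at the start of transcription are shown for RPS24, the member with the highest mean level over the 4 groups, for 4 genes on which the comparisons turn, and for RPS6 and RPL41. A 30-base window centred on a RefSeq start site was read 5′ to 3′ from the RefSeq promoters of GRCm38.p6, and capitals mark its longest run of pyrimidines. RPS24 and RPS27L have 2 start sites each, and the window with the longer run was chosen for display.
RPS24, chr14:24490663-24490692, plus strand: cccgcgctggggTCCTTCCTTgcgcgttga
RPS9, chr7:3704026-3704055, plus strand: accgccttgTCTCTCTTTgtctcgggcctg
RPL35, chr2:39005117-39005146, minus strand: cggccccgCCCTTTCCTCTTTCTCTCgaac
RPL28, chr7:4792950-4792979, plus strand: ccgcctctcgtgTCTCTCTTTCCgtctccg
RPS27L, chr9:66946071-66946100, plus strand: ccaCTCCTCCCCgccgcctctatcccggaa
RPS6, chr4:86857353-86857382, minus strand: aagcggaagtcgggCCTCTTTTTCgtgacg
RPL41, chr10:128549154-128549183, minus strand: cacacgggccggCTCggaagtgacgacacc

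The run was 18 bases long in RPL35, 11 in RPL28, 10 in RPS6, and 9 in RPS24, RPS9 and RPS27L. In RPS27L it lies wholly before the start site at the centre of the window, so it is not part of a transcript that begins there. In RPL41 the longest run in this window was 3 bases. RefSeq promoters were matched for 61 members. The stretch from 5 bases before to 10 bases after the start was searched for a C followed by at least 4 bases that are C or T. The match had to lie within that stretch, on the strand that has the sequence of the RNA. It was found in 30 of the 61 (49.2%), against 24.0% of 11002 genes of the table with a promoter. A pyrimidine run of at least 8 in the 30-base window was found in 27 (44.3%), against 15.2%. The run and the C-led motif overlap, since a long run often contains the motif. Over the whole RefSeq promoter and on both strands, CCGGAAG, a core recognised by ETS factors, was in 37.7% of member genes and 18.5% of all genes, and AAGATGGC, a YY1 core, in 9.84% and 4.89%. GGGCGG, the Sp1 core, was in 60.7% and 67.9%, and TATAAA in 9.84% and 8.83%. These matches describe letters at annotated starts and were not read as binding sites.

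The level of these genes spanned a wide range, although the ribosome holds its proteins in near-equal numbers. RPS24, a 40S protein with functions in rRNA maturation, was highest on the FPKM scale, at 1308 and 1292 above the lesion and 1494 and 1395 below it. RPS2, at the mRNA entry channel, followed with 608, 560, 650 and 603 in the same order. RPL41, whose coding sequence of 75 bases was the shortest, was at 525, 530, 689 and 558. RPS15 and RPS9, both 40S proteins, came next with means over the 4 groups of 560.1 and 542 FPKM. RPL29, listed only above and named after its value was seen, was at 1379 and 1299.

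Toward the other end were RPS28 with a mean of 4.02 FPKM, RPS29 with 5.58, RPL37 with 6.92 and RPL36A with 7.58. Many ribosomal protein genes have processed copies in the genome whose reads resemble their own, and these were counted by aligning each coding sequence to the GENCODE M21 transcripts. A coding sequence was found for 79 members, with a median of 5 near-identical copies in other genes, meaning at least 95% identity over at least 80% of its length. RPL21 had the most, 57, and only 14 members had 1 or none. RPL8, RPS3, RPS19BP1 and RPS27L were among the 5 with none. Across the 79 members, the mean FPKM had a Spearman rho of 0.11 with the number of copies and of 0.41 with the coding length, as a description over genes that share the same libraries. Levels between members are therefore uncertain wherever the counting could divide reads among copies. The part of the copies in the levels was not tested.

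**Figure D1:**
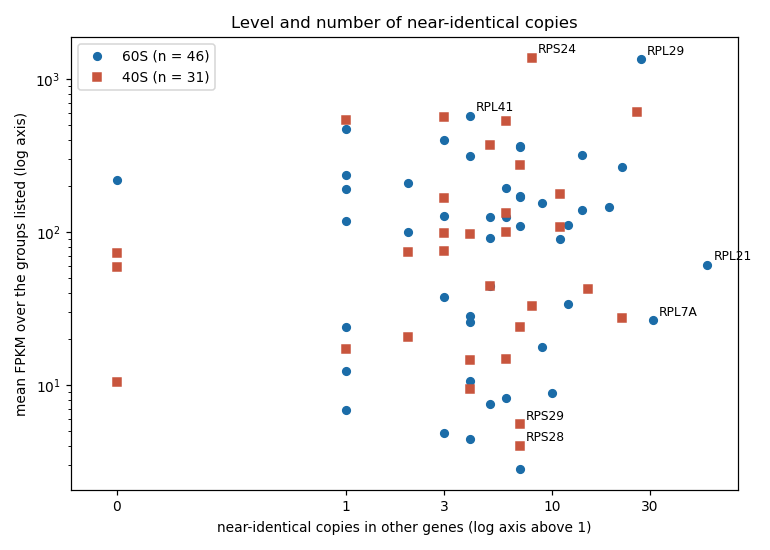
Mean FPKM over the groups listed (log axis) against the number of near-identical copies of the coding sequence in other genes (log axis above 1), with 1 point per member shown, circles for the 60S and squares for the 40S subunit. Members with few FPKM (RPS28, RPS29) and with over 1000 FPKM (RPS24, RPL29) both had several copies.

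Above the lesion, the ribosomal protein genes were close to equal in both genotypes. The median log2 difference of the 79 members was 0.03, with 50 above their synj1+/+ value and 29 below it. Of all genes, 49.0% were higher and 51.0% lower. By at least 1.2-fold, 6 were higher and 1 was lower, or 7.59% and 1.27% of the members, beside 6.62% and 10.5% of all genes. At 1.1-fold the counts were 18 higher and 5 lower, beside 19.1% and 23.0% of all genes, and at 1.5-fold 3 higher and 1 lower, beside 0.791% and 1.94%. The 44 members of the large subunit had a median of 0.02 and the 35 of the small subunit one of 0.06. The 48 members with a mean FPKM of at least 50 had a median of 0.01, and the 31 below that level one of 0.12.

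Of the 6 members higher by at least 1.2-fold above the lesion, 5 were of low level. RPS28, in the head of the small subunit, was at 2.47 in synj1+/+ and 5.71 in the group labelled synj1+/- (log2 difference 0.95). RPL38, known for its part in translating Hox mRNAs, was at 3.60 and 6.16 (0.64), and RPL24, which forms a bridge between the subunits, at 3.36 and 5.54 (0.59). RPS27RT was at 6.19 and 9.59 (0.56) and RPS23RG1 at 5.80 and 8.45 (0.47). All 5 had an FPKM under 10 in both groups.

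Among members with a mean FPKM of at least 10, RPL22L1, the paralog of RPL22, had the highest log2 difference, with 176 and 222 (0.33). RPL13A, a 60S protein also known from silencing of inflammatory mRNAs, was at 32.7 and 39.1 (0.25). RPS20, RPS7 and RPS15A, all of the 40S subunit, followed with 0.23, 0.20 and 0.20. RPS21, a small 40S protein, was the one member lower by at least 1.2-fold, at 19.5 and 9.54 (-0.96). The next lowest were RPL32 at 88.2 and 77.3 (-0.19), RPS27L (-0.16), RPL34 (-0.14) and RPS12 (-0.14).

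Below the lesion, the members were lower in the group labelled synj1+/- as a set, most by less than 1.2-fold. The median log2 difference of the 72 members was -0.12, which is a ratio of 0.92 in FPKM plus 1, and 62 were lower and 10 higher. That is 86.1% lower, where 47.2% of all genes were lower and 52.8% higher, and the median of all genes was 0.01. By at least 1.2-fold, 20 were lower (27.8%) and 2 higher (2.78%), beside 14.9% and 12.6% of all genes. At 1.1-fold, 33 were lower and 3 higher, beside 26.1% and 27.5%. By at least 1.5-fold, 3 were lower (4.17%) and 0 higher, beside 4.38% and 1.16% of all genes, and at this size the share lower was that of the background.

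The small subunit was lower in 32 of 34 members with a median of -0.14, and the large subunit in 30 of 38 with a median of -0.10. Of the 42 members with a mean FPKM of at least 50, 41 were lower and the median was -0.12, while all 2724 genes with a mean of at least 100 had a median of 0.05. Genes whose longest transcript is at most 1000 bases, as those of many ribosomal proteins, had a median of -0.02 over 562 genes. Members of that length were left in this set. The 13 members with at most 1 near-identical copy had a median of -0.18, and 11 of them were lower.

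**Figure D2:**
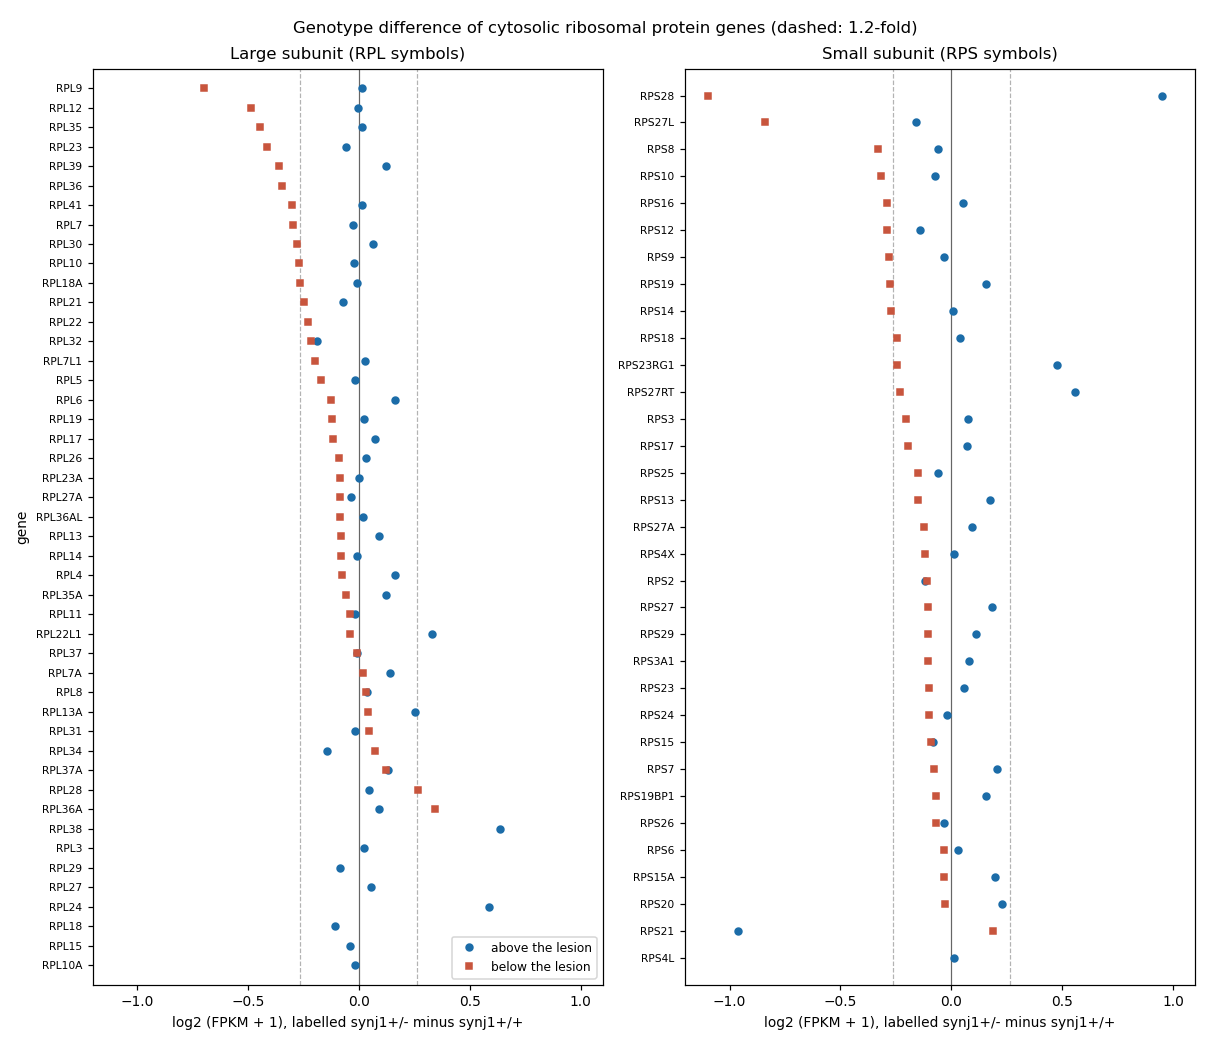
Log2 difference of FPKM plus 1, the group labelled synj1+/- minus synj1+/+, for each member shown, above (circles) and below (squares) the lesion, sorted by the value below, with dashed lines at 1.2-fold. Most squares lie to the left of 0 and most circles close to it, with RPS28 at 0.95 above and -1.10 below, and RPS21 at -0.96 above.

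RPS27L, a paralog of RPS27 that is a target of p53, had the lowest log2 difference below among members with a mean FPKM of at least 10. It was at 106.3 for synj1+/+ and 59.0 for the other genotype (-0.84), and above the lesion at 66.8 and 59.7. The value below in synj1+/+ was thus the high one of the 4, and the other 3 lay between 59.0 and 66.8. RPS27 itself was at 13.3 and 15.2 above, and at 15.4 and 14.2 below (-0.11).

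RPL9, a 60S protein, was at 7.26 and 7.34 above, and at 13.4 and 7.87 below (-0.70). RPL35, at the mouth of the exit tunnel, was at 9.17 and 9.28 above, and at 14.1 and 10.0 below (-0.45). In both genes, 3 groups were nearly level and below synj1+/+ stood over them. Both, like RPS27L, were named for a low difference below, so a high value in that group is partly given by the choice. RPL9 reached the mean of 10 FPKM at this site only through below synj1+/+. RPL23 was at 25.1 and 18.7 below (-0.41), but above it was at 26.4 and 25.3, so that here the low value was that of the group labelled synj1+/- below. RPL39, a small protein of the tunnel wall, was at 14.8 and 16.1 above, and at 22.6 and 17.4 below (-0.36).

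Members of high level showed the same direction, and the median was -0.12 at a mean FPKM of at least 50 and -0.11 under it. RPS9, which lines the mRNA entry, was at 506 and 495 above, and at 641 and 527 below (-0.28). RPL41 had a log2 difference of -0.30, RPS18 of -0.25 and RPS24 of -0.10 below the lesion. RPS28 had the lowest difference of all, at 5.73 and 2.15 (-1.10), which is opposite to its difference above and rests on an FPKM under 6.

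The members higher in the group labelled synj1+/- below were few. RPL28, a 60S protein, was at 24.6 and 29.7 (0.27), and above at 29.1 and 29.99, so that below synj1+/+ was its lowest group. RPS21 was at 18.8 and 21.5 (0.19), RPL37A at 25.3 and 27.7 (0.12), RPL34 at 45.4 and 47.9 (0.07) and RPL31 at 35.5 and 36.6 (0.04). RPL36A, with an FPKM under 10, was at 7.05 and 9.21 (0.34). RPS21, RPL34 and RPL31 were lower in the group labelled synj1+/- above and higher below.

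Grouped by role in the ribosome, the members were mostly lower below as well, where 86.1% of all members and 47.2% of all genes were lower. The role lists are parts of the members and share genes, so they are not separate observations. RPL5 and RPL11, which carry the 5S rRNA and restrain MDM2 when free, were at 122 and 121 FPKM and at 185 and 183 above. Below, RPL5 was at 138 and 122 (-0.17) and RPL11 at 210 and 204 (-0.04). Of 10 proteins around the exit tunnel, 9 were lower below, with a median of -0.10, RPL31 being the exception. RPL4, RPL17, RPL19, RPL22, RPL23A, RPL26 and RPL37 lay between -0.23 (RPL22) and -0.01 (RPL37). All 5 proteins of mRNA entry and decoding were lower below, with -0.11 for RPS2, -0.20 for RPS3, -0.28 for RPS9, -0.09 for RPS15 and -0.10 for RPS23. Above, the same 5 lay between -0.12 and 0.08.

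RPS6, the target of S6 kinase whose phosphorylation is a common readout of mTORC1 activity, was at 164 and 167 above, and at 191 and 186 below (-0.03). These mRNA levels do not measure that phosphorylation. Of proteins described as absent from a share of ribosomes, RPL10A (191 and 189) and RPL38 were listed only above. RPS25, used by viral internal entry sites, was at 116 and 104 below (-0.15), and RPS7 at 27.4 and 25.9 (-0.08). Of 20 members whose human genes are mutated in Diamond-Blackfan anemia, a failure of red cell formation, 17 were listed below. Of these, 16 were lower below with a median of -0.10, beside 86.1% of all members. The exception was RPL31, which is also in the exit tunnel list. The best known gene of this anemia, RPS19, was at 464 and 517 above, and at 629 and 518 below (-0.28).

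The paralogs did not stand apart as a group. RPL7L1, RPL22L1, RPL36AL and RPS27L were listed at both sites, and their differences below were -0.20, -0.04, -0.08 and -0.84. Their partners RPL7, RPL22, RPL36A and RPS27 had -0.30, -0.23, 0.34 and -0.11, and RPL10 and RPS4X, partners of other paralogs, -0.27 and -0.12. RPS4L was listed only above, at 82.9 and 83.5, beside RPS4X at 256 and 258, and RPL3 was at 364 and 370. RPL3L, RPL10L and RPL39L were not analysed here.

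The 4 groups together placed below synj1+/+ apart from the others. Over the 70 members listed at both sites, the summed FPKM was 9327 above in synj1+/+, 9438 above in the group labelled synj1+/-, 11395.5 below in synj1+/+ and 10226 below in the group labelled synj1+/-. The sum was 0.707%, 0.720%, 0.870% and 0.765% of the FPKM of all genes. Below synj1+/+ was the highest of the 4 groups for 57 of 70 members, where it was highest for 28.4% of all genes. Above synj1+/+ was the lowest for 42, where it was lowest for 24.4% of all genes, and the group labelled synj1+/- above was the lowest for 21, where it was lowest for 24.6% of all genes.

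**Figure D3:**
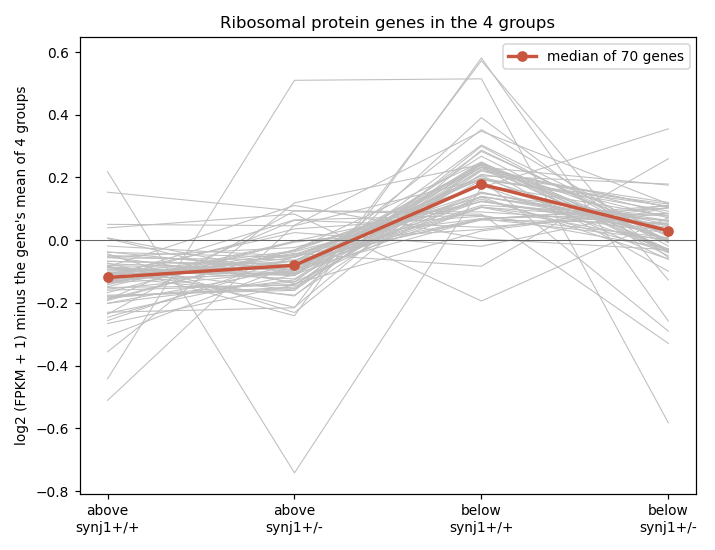
Each grey line is 1 of the 70 members listed at both sites, as log2 of FPKM plus 1 minus the mean of that gene over its 4 groups, and the thick line is the median. The median is highest in below synj1+/+, where 57 of the members had their highest value.

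Set across the sites within a genotype, the members were higher below. In synj1+/+, the median log2 difference of below over above was 0.29, a ratio of 1.22, and 67 of 70 were higher, where 49.8% of all genes were higher and 50.2% lower. At least 1.2-fold higher were 41 members (58.6%) and none was lower by that size, beside 13.7% and 11.5% of all genes. At 1.1-fold, 60 were higher and 1 lower, beside 26.1% and 25.3%, and at 1.5-fold 6 were higher and 0 lower, beside 3.25% and 1.36%. In the group labelled synj1+/- the median was 0.10 and 58 of 70 were higher, beside 55.5% of all genes higher and 44.5% lower, with 4 higher and 3 lower by at least 1.2-fold, beside 9.91% and 6.93%. At 1.1-fold, 27 were higher and 4 lower, beside 24.5% and 17.4%, and at 1.5-fold 1 in each direction, beside 1.44% and 0.832%. Short genes were also higher below. Over 533 of them, with members of that length left in, the median was 0.14 for synj1+/+ and 0.09 for the other genotype. The reads of each site were reduced and, as far as is known, scaled separately, so levels set across sites also carry that step.

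In synj1+/+ the examples spanned the whole range of level. RPS19 was at 464 above and 629 below (0.44), RPL19 at 313 and 415 (0.41), RPL41 at 525 and 689 (0.39) and RPS9 at 506 and 641 (0.34). RPL9 (0.80), RPS27L (0.66), RPL39 (0.59) and RPL35 (0.57) had larger differences, and RPS28 the largest (0.96). RPL28 (-0.23), RPL23 (-0.07) and RPS21 (-0.05) were the 3 members lower below. In the group labelled synj1+/- the same comparison gave 0.00 for RPS19, 0.26 for RPL19, 0.07 for RPL41 and 0.09 for RPS9, and RPS21 was the highest with 1.097.

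The difference between genotypes below minus that above had a median of -0.22 over the 70 members and was below 0 in 64 (91.4%). Over all 12025 genes listed at both sites the median was 0.02 and 46.1% were below 0. The comparisons between genotypes below and between sites in synj1+/+ share the group below synj1+/+, so they do not count as separate observations.

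**Figure D4:**
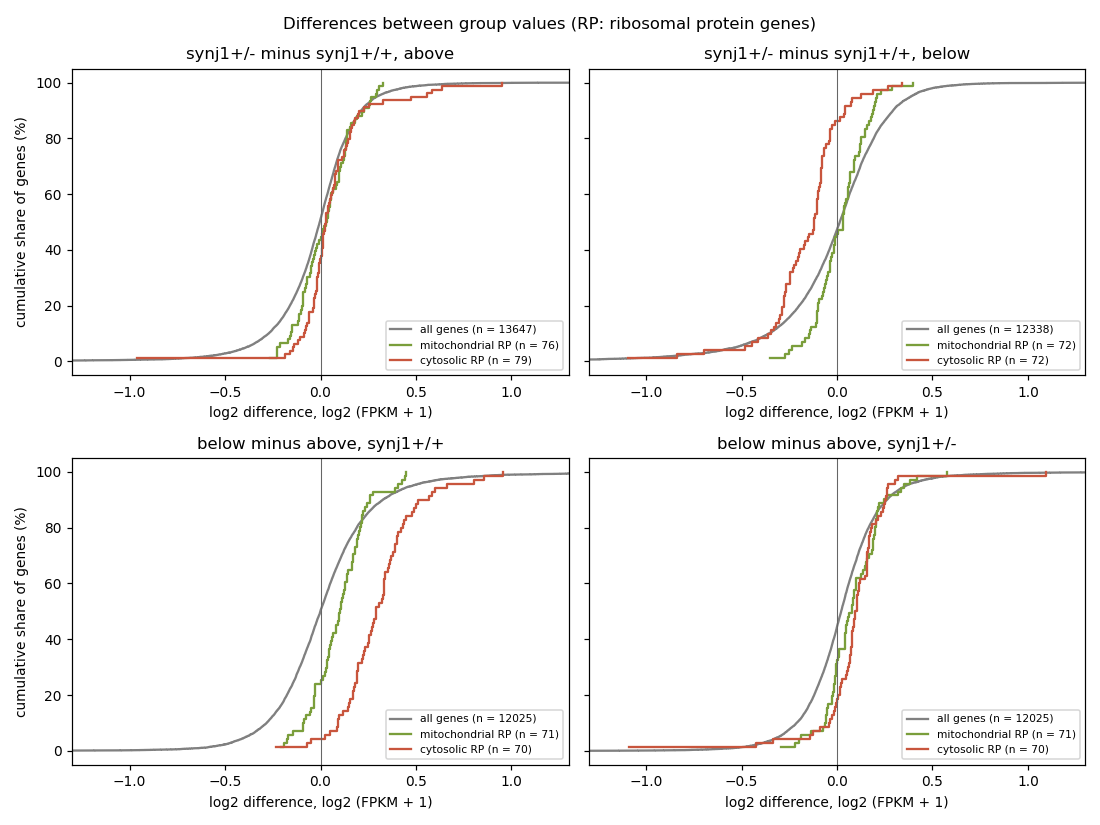
Cumulative share of genes (%) against the log2 difference of FPKM plus 1 in the 4 comparisons, for all genes (grey), mitochondrial ribosomal protein genes (green) and cytosolic ribosomal protein genes (red). The red curve lies to the left of the grey one below the lesion (median -0.12 against 0.01) and to its right in synj1+/+ across sites (0.29 against -0.00080).

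Other parts of the translation machinery were read with the same measure. Ribosomal protein genes with other symbols (such as RPLP0, RPLP1, RPLP2, FAU and RACK1 at both sites, and RPSA above) had a median of 0.02 above and -0.17 below, where 5 of 6 were lower. RPLP0, of the acidic stalk, was at 186 and 180.0 above and at 235 and 190 below (-0.31), and FAU, which encodes RPS30 fused to a ubiquitin-like protein, at 326 and 351 above and at 462 and 391 below (-0.24). Elongation factors had a median of 0.06 above and -0.09 below, with none of 9 and none of 8 past 1.2-fold. EEF1A1, which brings aminoacyl-tRNA to the ribosome, was at 995 and 957 above and at 1077 and 934 below (-0.21), whereas its neuronal paralog EEF1A2 was at 410 and 484 below (0.24).

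Further 5′ TOP mRNAs outside the ribosome had a median of 0.02 above and -0.05 below, with 7 of 9 lower below. GAS5, a host of small nucleolar RNAs, was at 234 and 174 below (-0.42), and PABPC1, the poly(A)-binding protein, at 281 and 220 (-0.35), whereas SNHG1, another small nucleolar RNA host, was higher with a log2 difference of 0.32. Initiation factors had medians of 0.00 above and 0.03 below, with 12 of 22 higher below and 1 past 1.2-fold in each direction. Ribosome biogenesis factors had 0.02 above and 0.00 below, with 7 of 57 higher and 2 lower by at least 1.2-fold below, beside 12.6% and 14.9% of all genes, UTP4 (0.42) and UTP14A (-0.40) having the largest sizes. The mTORC1 and TOP control list had 0.00 and 0.06, in which EIF4EBP1, a translation repressor, was at 8.01 and 5.19 below (-0.54) and LARP1B at 91.1 and 126 (0.47). Recycling and ribosome-associated factors had 0.06 at both sites.

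The mitochondrial ribosomal protein genes, whose list was added after values had been seen, had a median of 0.03 at both sites, and 33 of 72 were lower below. The S6 kinase symbols left out by the rule had medians of 0.01 above and 0.18 below over 10 genes, and the 4 -PS symbols 0.14 and -0.21. Within the members, the 27 with the C-led pyrimidine motif at an annotated start had a median of -0.10 below (21 lower), and the 28 with a promoter but no such match one of -0.14 (26 lower).

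Cell type markers differed between the same groups, and their part in the ribosomal values was not tested. Over markers of microglia and macrophages listed at both sites, 16 of 20, the summed FPKM above was 3432.5 for synj1+/+ and 2466 for the other genotype, and below it was 5363 and 3203. This sum was highest in below synj1+/+, as were those of the fibroblast, endothelial and Schwann cell markers. The Schwann cell sum rests on 3 genes, and PMP22 alone was 975 of its 1032 in that group. The neuron, astrocyte, oligodendrocyte and erythroid sums were highest in other groups. All 17 microglia and macrophage markers listed below were lower by at least 1.2-fold, with a median of -0.65, and 12 of 19 above, with a median of -0.43. Of all genes, 14.9% were lower by that size below and 10.5% above. LYZ2, a macrophage lysozyme, was at 380 and 234 above and at 1100.2 and 464 below.

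Fibroblast markers summed to 120 and 102 above and 627 and 140 below over 9 of 10 genes. All 9 were lower below with a median of -2.81, beside 47.2% of all genes lower. Among them was COL3A1, a fibrillar collagen, at 68.9 and 6.91. Endothelial markers summed to 350.4 and 339 above and 416 and 378 below. Above, 6 of 8 were higher with a median of 0.07, beside 49% of all genes, while SLC2A1, the largest part of the sum, was lower at 172 and 147. Below, 6 of 8 were lower with a median of -0.18, beside 47.2% of all genes. Neuron markers, present at both sites for 13 of 15 genes, summed to 9294 and 10296 above and to 9296 and 11722 below. SNAP25 made up most of these sums, with 5238 and 6247 above. Of the 14 neuron markers listed above, 8 were higher and 6 lower, with a median of 0.05, beside 49% of all genes higher. All 13 listed below were higher there by a median of 0.24, beside 52.8% of all genes higher. Astrocyte markers had medians of -0.21 over 10 genes above and -0.17 over 9 below. Oligodendrocyte markers had -0.11 and 0.11, over 6 of 11 genes at each site. Schwann cell markers had -0.15 over 3 of 6 genes above and -0.37 over 5 below, so these medians rest on different sets. Of the 3 above, 1 was higher, NCMAP with 0.88. Erythroid markers summed to 296 and 1188 above and 664 and 870.2 below. By at least 1.2-fold, 5 of 6 were higher above and 6 of 6 below, beside 6.62% and 12.6% of all genes. Their median below was 0.38. No marker listed was at 0, and none of 9 lymphocyte markers was listed.

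**Figure D5:**
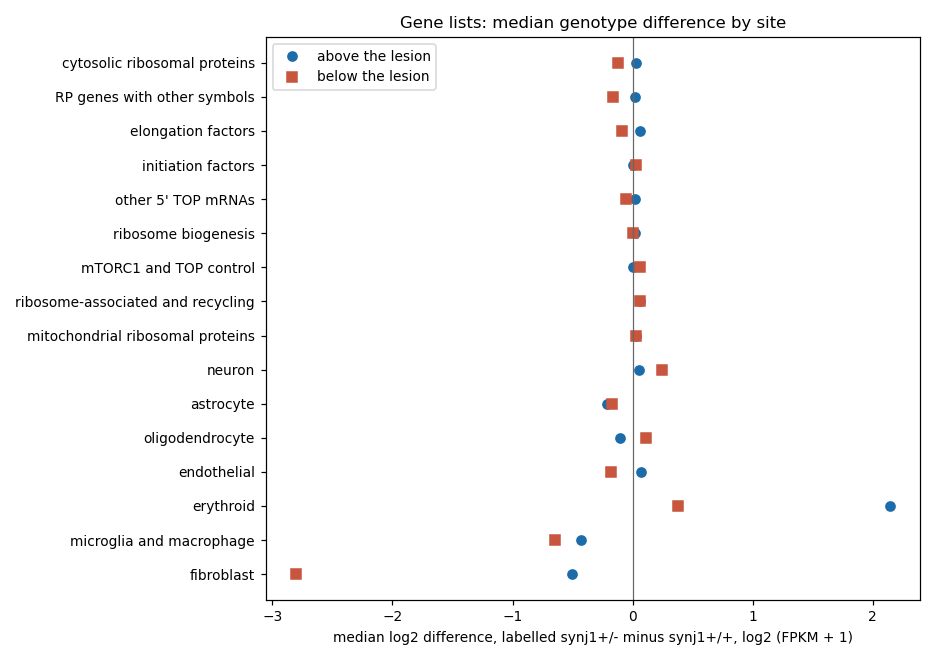
Median log2 difference of FPKM plus 1, the group labelled synj1+/- minus synj1+/+, for the cytosolic ribosomal protein genes, other translation lists and cell type markers, above (circles) and below (squares) the lesion. The ribosomal protein lists lie at -0.12 and -0.17 below, the microglia and macrophage markers at -0.65 and the fibroblast markers at -2.81.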

How the data were processed

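The study extracted total RNA with TRIzol, prepared TruSeq libraries and sequenced them on an Illumina HiSeq. Per the labels and the study's methods, reads of each site were randomly removed down to that site's smallest library, aligned with STAR 2.5.4b to GRCm38.p6 and summarized with Cuffdiff 1.3.0 after upper quartile normalization. The authors' deposited FPKM were read as FPKM plus 1, since the lowest of 25985 rows is exactly 1, and 1 was subtracted. The 3 libraries of a group are merged in 1 value and there are 0 columns of single libraries, so depth per value is unknown. The authors' fold change, p-value and q-value columns were not used. The design gives 3 animals per group, and segments above and below may share animals.

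Log2 differences used a pseudocount of 1, and a call meant at least 1.2-fold, with no test. Named genes were those with the 5 highest and lowest mean FPKM over 4 groups, those with the 5 highest and lowest differences per site at a mean FPKM of at least 10, and the paralogs, their partners, the role lists and RPS6. Not every gene that meets this rule is reported here by name. Members and lists were chosen with earlier results of these data known. Copies were found with BLAST 2.17.0, and the calculations, in Python 3.11.15, numpy 2.4.6 and pandas 2.3.3, were tested on simulated data. Alternatives varied the pseudocount, scaling, filter, fold and membership. ApoE3 libraries were not analysed here.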

Additional observations from a re-analysis of the deposited data

How the results depend on the processing

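No paired analysis was possible because the table holds 1 combined value per group and no column of single libraries, and for the same reason no library could be left out. The medians kept their sign in every setting tried except one. They ranged from -0.0067 to 0.04 above, from -0.18 to -0.11 below, from 0.21 to 0.33 across sites in synj1+/+ and from 0.05 to 0.11 in the group labelled synj1+/-. Members with at most 1 near-identical copy, a choice made after seeing the data, gave the lowest or nearest-to-0 of these, -0.0067 above, where the sign reversed, -0.18 below and 0.21 in synj1+/+. Counts past the fold threshold depended on settings. Higher above, the count of 6 became 3 with a pseudocount of 10, 18 at 1.1-fold, 3 at 1.5-fold, 0 with at most 1 copy and 1 with FPKM of at least 50, and the count lower of 1 became 5 at 1.1-fold and 0 with FPKM of at least 50. Lower below, the count of 20 became 11 with a pseudocount of 10, 33 at 1.1-fold, 3 at 1.5-fold, 3 with at most 1 copy and 11 with FPKM of at least 50. Higher below, the count of 2 became 0 with a pseudocount of 10, at 1.5-fold, with at most 1 copy and with FPKM of at least 50, and 1 when centred or rescaled to equal sums. In synj1+/+ across sites, the count of 41 higher became 6 at 1.5-fold and 5 with at most 1 copy, and that of 0 lower became 1 at 1.1-fold. In the group labelled synj1+/-, the count of 4 higher became 2 with a pseudocount of 10, 27 at 1.1-fold, 1 at 1.5-fold, 1 with at most 1 copy and 2 with FPKM of at least 50, and that of 3 lower became 1 at 1.5-fold, 1 with at most 1 copy and 0 with FPKM of at least 50. These restrictions also reduce the genes counted, to 13 with at most 1 copy at each site and 12 listed at both. With FPKM of at least 50, 48 genes above, 42 below and 41 at both sites remained. Lower below, the shares were 23.1% with at most 1 copy and 26.2% with that FPKM, beside 27.8% of all members. Higher across sites in synj1+/+, they were 41.7% and 68.3%, beside 58.6%. The shares of all genes at 1.1-fold and 1.5-fold are those given with each comparison. No share of all genes was computed for the pseudocount of 10. The ribosome biogenesis median below became -0.014 when centred on all genes. The cause of the other differences was not tested. In all, 104 of the recomputed values of the main comparisons stayed within 1.5 times of a count, or within 0.05 of a median with its sign kept. Another 24 counts were smaller and 5 larger beyond that, 2 medians moved further and 1 changed sign. The filter at a mean FPKM of at least 1 removed no member, so its values, counted among the 104, could not differ.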
